A study of Sus scrofa with 12 samples.

Results

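The genes of cholesterol synthesis, sensing and transport were examined in the striatum of newborn pigs after deep hypothermic circulatory arrest (DHCA). Of 33 gene names in the list, 29 were found in the authors' deposited table and read from the raw counts by gene identifier, out of 25880 genes counted. All 29 passed the filter on low counts, by which 14004 genes were tested. RNA labelled as striatum came from 6 sham samples, of neonatal piglets under 4% isoflurane alone, and from 6 DHCA samples. In the DHCA group anaesthesia with 4% isoflurane was followed by sternotomy and bypass. Cooling on bypass reached 18 °C, the circulation was stopped for 30 min, the temperature was brought back to 37 °C, and recovery lasted 6 h. The labels do not say whether each sample is a separate piglet, so p-values measure the spread between samples, which may in part be technical. Surgery, bypass, cooling and arrest therefore differ between the groups together, and a recovery time was given for DHCA alone. The comparison asks how this gene set differed between the groups.

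Brain cholesterol is made within the brain, because lipoprotein cholesterol in blood does not cross the blood-brain barrier. Acetyl-CoA is turned into mevalonate and isoprenoids, then into squalene, lanosterol and cholesterol. When sterol in the endoplasmic reticulum is low, the escort protein SCAP carries the transcription factors SREBP-1 and SREBP-2 to the Golgi for cleavage, and INSIG proteins hold SCAP back when sterol is plentiful. Oligodendrocytes make much of the cholesterol of myelin during development, astrocytes pass cholesterol to neurons on apolipoprotein E, and neurons clear it through CYP46A1.

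Some libraries stood apart from the rest. Totals ran from 1377809 counts in Sham 5 and 2515816 in Sham 1 to 12933536 in Sham 6, and the mitochondrial share was 4.01% in Sham 1 and 7.30% in Sham 5 against 10.6% to 26.3% in the other 10. Sham 4 went against its tissue label. The spiny projection neuron markers, which define striatum, took 0.0131% of its counts against 0.209% to 0.620% in the other libraries, and the cortical excitatory neuron markers took 0.112% against 0.000545% to 0.00298%. Myelinating oligodendrocyte markers (11 of 12 genes found) ranged from 1.06% to 3.37% in sham and from 0.493% to 6.25% in DHCA, with DHCA 3 the highest. In tissue RNA, fewer cells of a type and less RNA per cell cannot be told apart.

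None of the 29 cholesterol genes passed the test for a difference between DHCA and sham. The edgeR quasi-likelihood test called 0 members higher and 0 lower at an adjusted p under 0.05, where 0.186% of all tested genes were called, and the smallest adjusted p among members was 0.676. At an unadjusted p under 0.05 edgeR had 0 members, against 7.9% of all genes tested, of which 3.43% higher and 4.47% lower. Calls at an adjusted p under 0.05 made up 0.136% of tested genes for higher and 0.05% for lower. The DESeq2 Wald test called 0 members (1.24% of all genes), with 1 member at an unadjusted p under 0.05 (7.42% of all genes with a p). Limma-voom with sample quality weights called 0 members (1.48% of all genes), with 7 at an unadjusted p under 0.05, all higher in DHCA (6.08% of all genes were higher at that p). These 7 were TM7SF2, HSD17B7, DHCR7, SREBF1, INSIG1, STARD4 and ABCG1. The 6 DHCA and 6 sham libraries overlapped in all 29 genes, whereas 0.678% of tested genes had every DHCA library above sham and 0.314% every DHCA library below. Fold changes were positive in 22 members and negative in 7, with a median log2 fold change of 0.12, against 49.5% positive, 50.5% negative and a median of -0.0030 over all genes tested. The 95% intervals were wide: that of the lanosterol demethylation gene MSMO1 ran from -0.63 to 1.55 on the log2 scale, and that of EBP, a sterol isomerase gene, from -0.39 to 0.40.

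**Figure D1:**
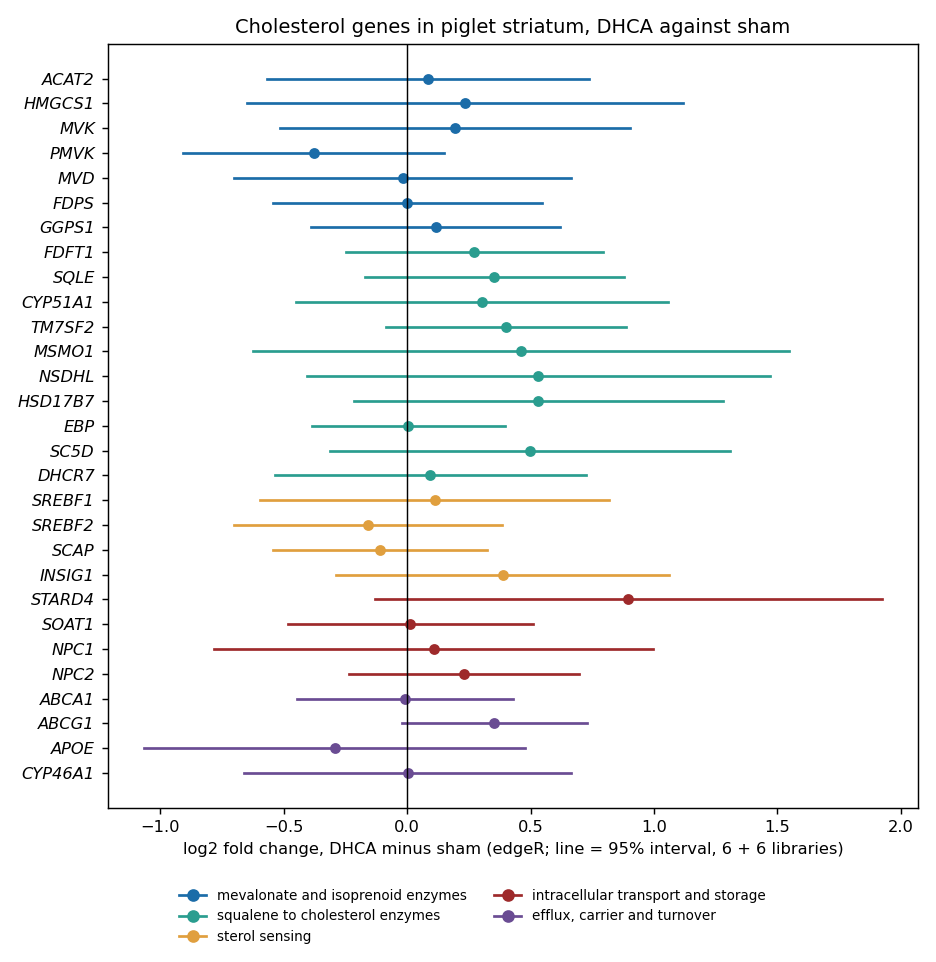
Log2 fold change of each of the 29 genes, DHCA minus sham, on the horizontal axis, with the edgeR 95% interval as a line (6 libraries per group) and colour for the role. Every interval crosses 0, and the estimate farthest from 0 is that of STARD4 at 0.90.

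Among the 7 members that act from acetyl-CoA to the isoprenoids, HMGCS1 and MVD had the highest levels per length. HMGCS1, which makes the precursor of mevalonate (ENSSSCG00000016872, Sscrofa11.1 chromosome 16, 27936229 to 27957227), reached 120 RPKM on average over the 12 libraries, where RPKM is the depth-scaled count per kilobase of exon. As TMM-scaled CPM, which corrects for depth but not for length, it ran from 235 to 1405 with a median of 532 in sham and from 465 to 1707 with a median of 629 in DHCA. The groups overlapped widely, the lowest value was in Sham 1 and the highest values were in DHCA 3 and Sham 2. The means were 661 ± 406 in sham and 778 ± 474 CPM in DHCA (SD, n = 6 each), and the log2 fold change was 0.23 (SE 0.41, edgeR adjusted p = 0.893). This estimate turned to -0.18 without DHCA 3, to -0.022 without Sham 1 and Sham 5, and stood at 0.61 without Sham 2.

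The kinases and the decarboxylase that follow HMGCS1 differed from it in their pattern over libraries. PMVK, the phosphomevalonate kinase gene, was at 8.86 to 26.0 CPM (median 11.8) in sham and 8.39 to 12.9 CPM (median 10.5) in DHCA. Sham 5 alone held the value of 26.0, and the other 11 libraries lay between 8.39 and 15.1 CPM. Its log2 fold change of -0.38 (SE 0.25, edgeR adjusted p = 0.773) was the most negative among the members and stood at -0.15 without Sham 5. MVK, the mevalonate kinase gene, had 0.20 (SE 0.33), with 0.017 without DHCA 2 and 0.43 without Sham 1. The MVK estimate was 0.69 without Sham 1 and Sham 5 together, and 0.51 with limma-voom weights (adjusted p = 0.419). MVD, which makes isopentenyl diphosphate, had -0.018 (SE 0.32). MVD was highest in Sham 1 (123 CPM), Sham 5 (117 CPM) and DHCA 3 (112 CPM), and its estimate was 0.48 without Sham 1 and Sham 5. ACAT2, the cytosolic thiolase gene, and GGPS1, which makes geranylgeranyl diphosphate for protein prenylation, had 0.083 (SE 0.30) and 0.12 (SE 0.24), with -0.21 for ACAT2 without DHCA 3 and -0.011 for GGPS1 without Sham 1.

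FDPS, the farnesyl diphosphate synthase gene, was counted at 0.623 RPKM, the lowest level of the 29 genes, although it stands between MVD at 42.0 and FDFT1 at 15.8 RPKM in the pathway. It had 6 counts in its shallowest library. Its annotated span overlaps RUSC1 on the same strand, and the counting command sets no option for reads that match several places, so this level is uncertain. Its log2 fold change was -8.8e-05 (SE 0.25).

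Each of the 10 enzymes that turn farnesyl diphosphate into squalene and then cholesterol had a positive estimate, and none was called. Their median log2 fold change was 0.38, with a range from 0.0045 for EBP to 0.53 for HSD17B7. Without DHCA 3 the estimates were positive in 5 of the 10, with a median of 0.031. SQLE, the squalene epoxidase gene and a rate-limiting step after mevalonate (ENSSSCG00000005970, chromosome 4, 14667848 to 14700221), was at 91.9 to 213 CPM (median 114) in sham and 128 to 271 CPM (median 152) in DHCA. Sham 1 was lowest, and Sham 2 and Sham 4 lay among the DHCA values. Its means were 134 ± 45.7 and 172 ± 54.7 CPM, a log2 fold change of 0.35 (SE 0.24, edgeR adjusted p = 0.784), which was 0.16 without DHCA 3 and 0.54 without Sham 2.

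TM7SF2, a sterol C14 reductase gene whose span overlaps the more highly counted VPS51 on the same strand, was at 8.93 to 12.6 CPM (median 11.8) in sham and 10.3 to 23.5 CPM (median 12.3) in DHCA. The medians lay close together, and DHCA 2 (17.8 CPM), DHCA 3 (23.5 CPM) and DHCA 4 (13.2 CPM) were above all of sham. Its log2 fold change was 0.40 (SE 0.23, edgeR adjusted p = 0.749), and 0.19 without DHCA 3.

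HSD17B7, a 3-ketosteroid reductase gene of the pathway, had 5.82 to 23.6 CPM (median 12.7) in sham and 13.9 to 37.3 CPM (median 18.5) in DHCA. In this gene Sham 1, Sham 3 and Sham 6 lay below all of DHCA, and DHCA 3 lay above all other libraries. The log2 fold change was 0.53 (SE 0.35, edgeR adjusted p = 0.775), and 0.26 without DHCA 3.

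The remaining enzymes of this arm were FDFT1, CYP51A1, MSMO1, NSDHL, EBP, SC5D and DHCR7. FDFT1, the squalene synthase gene, had 0.27 (SE 0.24), and 0.074 without DHCA 3. CYP51A1 and MSMO1, which with NSDHL strip methyl groups from lanosterol, had 0.30 (SE 0.35) and 0.46 (SE 0.51), and NSDHL had 0.53 (SE 0.44). The span of MSMO1 overlaps KLHL2, with a like mean count, on the same strand, so its level and that of TM7SF2 are uncertain. CYP51A1, MSMO1 and NSDHL all turned negative without DHCA 3, at -0.11, -0.011 and -0.092. SC5D, a sterol desaturase gene, had 0.50 (SE 0.38), with 0.21 without DHCA 3. DHCR7, which catalyses a final reduction to cholesterol, had 0.093 (SE 0.29), and -0.12 without DHCA 3. With limma-voom weights and all libraries the DHCR7 estimate was 0.53 (adjusted p = 0.349).

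**Figure D2:**
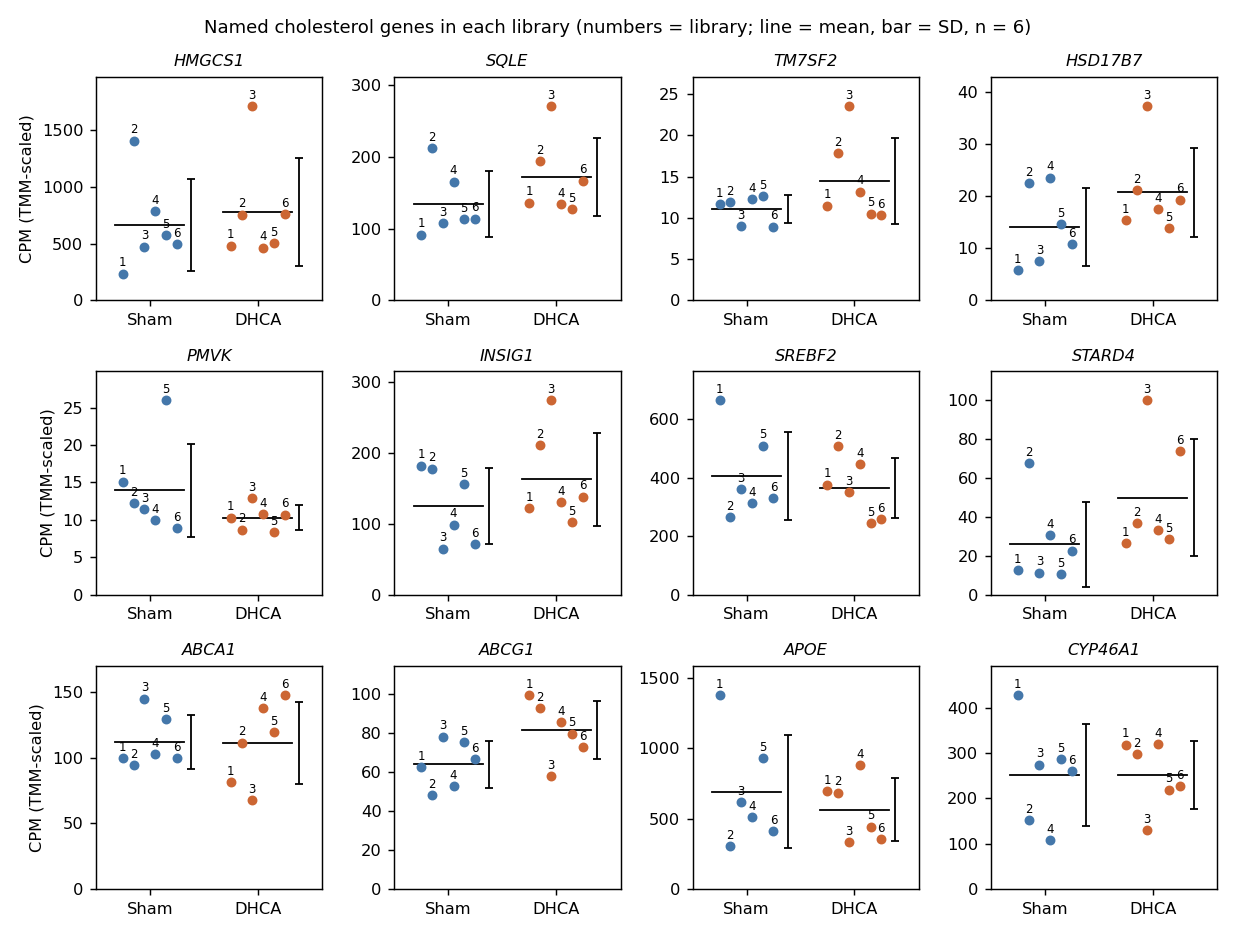
CPM of 12 named genes in each library, with a separate linear axis starting at 0 for each gene, 1 point per library numbered as in the titles, the group mean as a line and the SD as a bar (n = 6). Sham and DHCA points overlap in every panel, and DHCA 3 is the highest library for HMGCS1 (1707 CPM) and STARD4 (99.7 CPM) but the lowest for ABCA1 (67.9 CPM).

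Among the sensing genes, the INSIG1 estimate was the farthest from 0. INSIG1, which retains SCAP in the endoplasmic reticulum and is itself a target of SREBP (ENSSSCG00000016420, chromosome 18, 2885494 to 2898914), was at 65.1 to 182 CPM (median 127) in sham and 103 to 274 CPM (median 135) in DHCA. Sham 3, Sham 4 and Sham 6 were lowest, and DHCA 3 and DHCA 2 highest. Its log2 fold change was 0.39 (SE 0.31, edgeR adjusted p = 0.811), 0.16 without DHCA 3, and 0.74 with sample quality weights in limma-voom (adjusted p = 0.169).

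SREBF2, the gene of SREBP-2, which drives cholesterol synthesis, ran from 264 to 663 CPM (median 345) in sham and from 246 to 507 CPM (median 363) in DHCA. Sham 1 held the highest value and Sham 5 the next (509 CPM). The log2 fold change was -0.16 (SE 0.25, edgeR adjusted p = 0.880), and 0.20 without Sham 1 and Sham 5. SREBF1, whose product drives fatty acid synthesis as well, had 0.11 (SE 0.33), and SCAP had -0.11 (SE 0.20). Without Sham 1 and Sham 5 the estimates were 0.64 for SREBF1 and 0.12 for SCAP. With limma-voom weights they were 0.50 (adjusted p = 0.386) and 0.019 (adjusted p = 0.981). All 3 of SREBF1, SREBF2 and SCAP were highest in Sham 1 and next highest in Sham 5, the libraries with the smallest totals and mitochondrial shares. What part depth or RNA quality had in this order was not tested.

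STARD4, which carries sterol between membranes and is a target of SREBP-2, had the largest estimate of the 29 genes. STARD4 (ENSSSCG00000031518, chromosome 2, 116234587 to 116257041) was at 10.7 to 67.5 CPM (median 17.7) in sham and 26.4 to 99.7 CPM (median 34.9) in DHCA. Every DHCA library lay above Sham 1, Sham 3, Sham 5 and Sham 6, while Sham 2, and Sham 4 at 30.6 CPM, lay among the DHCA values. The means were 25.9 ± 21.8 and 49.7 ± 30.1 CPM, and the fitted difference was 1.86-fold (log2 fold change 0.90, SE 0.48, interval -0.13 to 1.92, edgeR adjusted p = 0.718). Without Sham 2 the estimate was 1.46 with adjusted p = 0.198, and without DHCA 3 it was 0.54 with adjusted p = 0.876 (edgeR; 0.198 to 0.965 over all fits without 1 library).

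The other genes of sterol movement and storage lay closer to 0. NPC1, the membrane protein that exports cholesterol from lysosomes, had 0.11 (SE 0.42), and -0.40 without DHCA 3. It was at 431 CPM in DHCA 3 and 61.6 CPM in DHCA 5, a 7.00-fold range within the group. NPC2, its soluble partner, had 0.23 (SE 0.22), and 0.082 without DHCA 3. SOAT1, which esterifies cholesterol for storage, was at 2.38 RPKM and had 0.013 (SE 0.23).

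The genes of efflux, carriage and turnover had the smallest unadjusted p of the members in ABCG1, and no call. ABCG1, an exporter of cholesterol to lipoproteins (ENSSSCG00000027745, chromosome 13, 205561927 to 205630797), was at 48.3 to 78.2 CPM (median 64.4) in sham and 57.9 to 99.7 CPM (median 82.6) in DHCA. In this gene DHCA 3 was the lowest of its group and lay among the sham values, and DHCA 1, 2, 4 and 5 lay above all sham libraries. The means were 63.9 ± 11.9 and 81.4 ± 14.9 CPM, with a log2 fold change of 0.35 (SE 0.17, unadjusted p = 0.0619, edgeR adjusted p = 0.676), and 0.28 to 0.42 when any 1 library was left out. ABCA1, which loads cholesterol onto apolipoproteins, was at 94.0 to 145 CPM (median 101) in sham and 67.9 to 148 CPM (median 116) in DHCA. Its groups lay on top of each other, with a log2 fold change of -0.0089 (SE 0.20, interval -0.45 to 0.43).

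APOE, which encodes the main apolipoprotein of the brain, had the highest level of the 29 genes per length, 433 RPKM on average. It was at 304 to 1381 CPM (median 563) in sham and 331 to 881 CPM (median 564) in DHCA. The medians were almost equal, and Sham 1 and Sham 5 (932 CPM) lay above all of DHCA. The log2 fold change was -0.29 (SE 0.36, edgeR adjusted p = 0.842), and 0.30 without Sham 1 and Sham 5.

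CYP46A1, the neuronal enzyme that makes 24-hydroxycholesterol for export from the brain, was at 111 RPKM on average. It ran from 108 to 429 CPM (median 268) in sham and from 129 to 320 CPM (median 262) in DHCA. Sham 4, which had few striatal markers, was lowest, DHCA 3 was next and Sham 1 was highest. Its log2 fold change was 0.0030 (SE 0.31, interval -0.66 to 0.67), and -0.17 without Sham 4.

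Libraries of the same group differed widely in the synthesis enzymes, and in some libraries most or all enzymes moved together. DHCA 3 was the highest of the 12 libraries in 17 of the 29 members and in 13 of the 17 synthesis enzymes, and all 17 enzymes lay above their mean in it, by a median of 0.89 on the log2 scale. The share of all tested genes that were highest in DHCA 3 was not computed, so these counts have no background beside them. Sham 2 lay above the mean in 13 enzymes (median 0.52), while Sham 3 lay below it in all 17 (median -0.40) and Sham 6 in 16 (median -0.37). The enzymes were split in Sham 1, with 6 above and 11 below their mean, and in Sham 5, with 9 above and 8 below. Over all tested genes the medians of these libraries were between -0.017 and 0.049. ABCA1, APOE, CYP46A1 and ABCG1 ran the other way in DHCA 3, where all 4 lay below their mean (median -0.72), and in Sham 2 (median -0.59). The sensing genes SREBF1, SREBF2 and SCAP also lay below their mean in DHCA 3 (-0.34, -0.077 and -0.56) and in Sham 2 (-0.97, -0.48 and -0.55). INSIG1 lay above it in both (1.04 and 0.42).

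DHCA 3 and Sham 2 were also the libraries with the largest share of myelinating oligodendrocyte markers, 6.25% and 3.37% of counts, followed by Sham 5 with 3.28%, Sham 1 with 2.84% and DHCA 2 with 2.70%. The remaining 7 libraries lay between 0.493% and 1.49%. For INSIG1, NPC1, NSDHL and EBP, the 5 libraries with the highest CPM were these 5 libraries, and for 4 other members they included 4 of the 5. These members were picked out after their values were seen. All other members shared only 1 to 3 of the 5 libraries. How often genes outside the list shared 4 or 5 was not computed. Other enzymes parted from the myelin markers in Sham 1, which was the lowest of the 12 libraries for 8 enzymes: HMGCS1, GGPS1, FDFT1, SQLE, CYP51A1, MSMO1, HSD17B7 and SC5D. Sham 5 also ranked low for some members, at place 10 of 12 for SQLE, 11 for GGPS1, MSMO1 and SC5D, and 12 for STARD4. MSMO1 was at 20.5 CPM in Sham 1, from 53 counts, against 65.2 CPM in Sham 5 and 381 CPM in DHCA 3. Astrocyte markers (8 of 8 genes found) together took 0.587% of counts in Sham 1, within the 0.482% (DHCA 3) to 0.801% (DHCA 4) of the other libraries. Single markers could differ from this sum. AQP4 was at 161 CPM in Sham 1, against 526 (Sham 5) to 1263 CPM (DHCA 6) elsewhere. GJA1 was at 90.7 CPM in Sham 1, against 204 (DHCA 2) to 384 CPM (DHCA 6) elsewhere. AQP4 and GJA1 do not stand for the whole list. GFAP and SOX9 had their highest value of all libraries in sham (2553 and 145 CPM). SLC1A3 and SLC1A2 had their lowest value there (626 and 1475 CPM). The other astrocyte markers were not read library by library. What part cell composition, depth or RNA quality had in these orders was not tested.

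**Figure D3:**
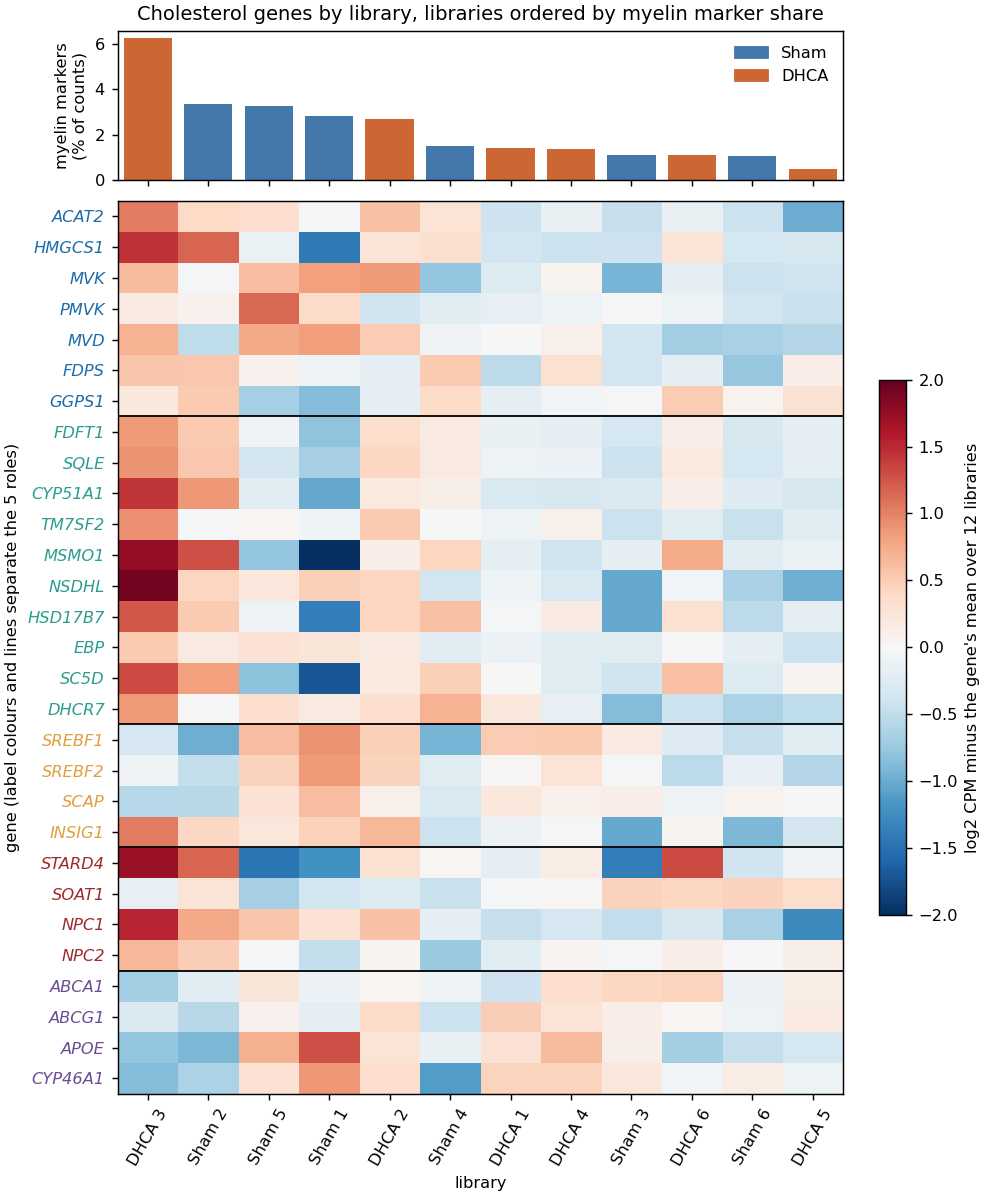
Top, share of counts in 11 myelinating oligodendrocyte marker genes for each of the 12 libraries, ordered from 6.25% in DHCA 3 to 0.493% in DHCA 5. Bottom, log2 CPM of each of the 29 genes minus its mean over the 12 libraries (colour, limited to ±2), where the synthesis enzymes are red in DHCA 3 and mostly blue in Sham 3 and Sham 6.

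In edgeR, the lean of the synthesis enzymes toward positive estimates was lost without DHCA 3. With all libraries 14 of the 17 enzymes were positive, with a median of 0.23, and without DHCA 3 there were 7 of 17, with a median of -0.092. Over all genes tested without DHCA 3, 46.7% were positive, with a median of -0.024. Limma-voom with sample quality weights and all libraries had 15 of 17 enzymes positive, with a median of 0.28. No fit left out DHCA 3 and Sham 2 together. Over all 29 members 22 were positive with every library in the fit and 15 without DHCA 3. Leaving out any other single library gave between 11 and 16 positive enzymes and medians between 0.16 and 0.44. Without Sham 4, which went against its tissue label, the enzymes had a median of 0.28, without Sham 1, Sham 4 and Sham 5 together 0.24, and without Sham 1 and Sham 5 together 0.14, with 13 of 17 positive.

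**Figure D4:**
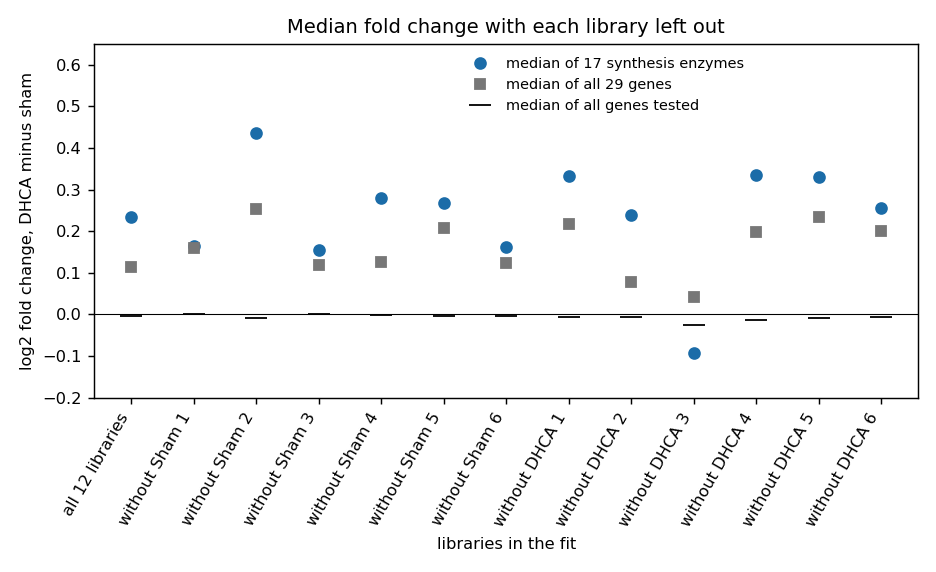
Median log2 fold change (vertical axis) of the 17 synthesis enzymes, of all 29 cholesterol genes and of all genes tested, with all 12 libraries and with each library left out (horizontal axis). The enzyme median falls below 0, to -0.092, in the fit without DHCA 3 and is highest, 0.44, without Sham 2.

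Other genes of the pathway gave 0 calls as well. Of 67 found in 6 further lists, 64 were tested, and edgeR called 0 (at an unadjusted p under 0.05, 2 higher and 2 lower), with 37 positive and 27 negative estimates and a median of 0.016. Among 8 tested genes of SREBP cleavage and sterol-regulated degradation, 7 estimates were positive with a median of 0.15. RNF139, a ubiquitin ligase gene, had 0.33 (SE 0.16, edgeR adjusted p = 0.665).

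Fatty acid synthesis and other SREBP-1 targets were balanced, with 8 positive and 6 negative estimates and a median of 0.011. The desaturase gene FADS1 had 0.35 (SE 0.16, edgeR adjusted p = 0.624) and ACSL3, which activates fatty acids, had 0.38 (SE 0.25). In the list of liver X receptors and oxysterol enzymes (12 tested, 6 positive, median -0.028), CH25H, which makes 25-hydroxycholesterol, had -0.84 (SE 0.32, edgeR adjusted p = 0.488). CYP27A1, which makes 27-hydroxycholesterol, had 0.65 (SE 0.35, edgeR adjusted p = 0.725). CH25H averaged 4.49 ± 2.62 CPM over sham and 2.60 ± 0.489 CPM over DHCA (SD, n = 6 each), and its estimate was -0.43 without Sham 2.

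The lipoprotein receptors and carriers (10 tested) had a median of -0.032, with VLDLR at -0.22 (SE 0.20) and LRP8, an apolipoprotein E receptor gene, at -0.24 (SE 0.23). Intracellular sterol carriers (12 tested) had a median of 0.010, with GRAMD1A at 0.31 (SE 0.19) and STARD5 at 0.49 (SE 0.31). Other uses of the mevalonate pathway (8 tested) had a median of 0.14. There PDSS2, needed for the ubiquinone side chain, had -0.45 (SE 0.18, edgeR adjusted p = 0.520), and FNTB, a farnesyltransferase subunit gene, had 0.24 (SE 0.19).

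Of the 29 members, 0 had an adjusted p under 0.05 in the authors' deposited table, against 1.29% of the genes with an adjusted p there. STARD4 (log2 fold change 1.06, standard error 0.44, adjusted p = 0.294) and ABCG1 (0.36, standard error 0.16, adjusted p = 0.388) were the 2 members with an unadjusted p under 0.05 in the authors' deposited table, where 8.26% of genes with a p were under it. The signs matched those computed here for 27 members, and FDPS and NPC1, both near 0, differed. Both sets of values come from the same study and are not independent of each other.

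The list names CYP51, IDI1, INSIG2 and LSS were absent, as names, from the authors' deposited table. A reference table of pig gene names gave identifiers for IDI1, INSIG2 and LSS and none for CYP51. CYP51A1 itself was found by name. By identifier, the authors' deposited table held IDI1 (log2 fold change 0.19, standard error 0.30) and INSIG2 (0.059, standard error 0.24), and neither was called there. IDI1, the isomerase gene of isopentenyl diphosphate, averaged 88.9 ± 40.6 CPM over sham and 103 ± 56.5 CPM over DHCA (SD, n = 6 each; log2 fold change 0.20, SE 0.34). DHCA 3 (212 CPM) and Sham 2 (160 CPM) were highest for IDI1, the same libraries as for HMGCS1. INSIG2 was at 11.4 ± 3.90 and 12.2 ± 2.80 CPM (log2 fold change 0.056, SE 0.24). LSS, the lanosterol synthase gene, is annotated on an unplaced scaffold and had 0 counts in all 12 libraries, which allows up to 0.220 CPM in Sham 6 and up to 2.00 CPM in Sham 5 (3 counts per library, counting error only). SQLE and CYP51A1, which act before and after it, averaged 30.7 and 29.5 RPKM. Whether reads of LSS could be assigned to this scaffold was not tested, so its level is uncertain.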

How the data were processed

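Raw counts by Ensembl gene identifier were deposited by the authors, who ran featureCounts 1.5.1 over the exons of Sscrofa11.1, per the file headers. No strand option was set there, so reads from exon stretches shared by genes on opposite strands cannot be told apart. The spans of ACAT2, FDFT1, CYP51A1, DHCR7, SREBF1, SREBF2, SCAP, NPC1, NPC2 and APOE overlap a gene on the other strand. Whether their exons overlap as well was not computed. For the aligner, the tool was not given in the sources used here. Of 18 library columns, 12 match the samples and 6 were not used. The authors' deposited comparison table holds mean signal after depth scaling, the log2 fold change, its error, a score for the test, and p-values before and after adjustment, and the submitters' processing notes name DESeq2. Its fold changes were read as DHCA minus sham from their correlation of 0.967 with those computed here across 14004 genes.

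Counts were filtered with filterByExpr, scaled by TMM and tested over all genes with the edgeR 4.0.16 quasi-likelihood test in R 4.3.3, with group as the only term and Benjamini-Hochberg adjustment. Standard errors and 95% intervals follow from the F statistic. Fold changes are DHCA minus sham. RPKM uses the deposited exon length. No library repeated another: chi-square per degree of freedom was 8.50 to 125.8 between libraries of the same group. DESeq2 1.42.0 and limma 3.58.1 (voom) were alternatives. The edgeR fit with TMM or DESeq2 size factors, the DESeq2 fit and the weighted limma-voom fit were tested on simulated data. The remaining steps were not.

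The members and lists were chosen with earlier results of these data known. Values were given in full for the 6 members with the smallest p and for 7 fixed by role (HMGCS1, SQLE, INSIG1, SREBF2, ABCA1, APOE and CYP46A1), and for the 2 genes with the smallest p of each further list. A result that this rule would name is not reported here. Promoter motifs and other sequences were not analysed here.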

Additional observations from a re-analysis of the deposited data

Results flagged for a closer look

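Within each group of 6 libraries, the gap between the most extreme library and its neighbour was compared with the whole range, for 29 genes in both groups (58 sets of values) and 4 marker lists. For normally distributed values, chance alone flags about 1 set in 20. The values were used without taking logs, and their distribution was not tested. Genes that vary together over libraries do not give separate flags. A single library stood apart in 8 sets of gene values, and 6 of these were DHCA 3. HMGCS1 was at 1707 CPM in DHCA 3 against 465 to 756 CPM in the other DHCA libraries. CYP51A1 was at 381 CPM there against 113 to 162 CPM, and MSMO1 at 381 CPM against 85.1 to 188 CPM. NSDHL was at 208 CPM in DHCA 3 against 28.0 to 74.5 CPM, HSD17B7 at 37.3 against 13.9 to 21.2 CPM, and the lysosomal gene NPC2 at 38.9 against 20.5 to 26.8 CPM. In sham, PMVK was at 26.0 CPM in Sham 5 against 8.86 to 15.1 CPM, and STARD4 at 67.5 CPM in Sham 2 against 10.7 to 30.6 CPM. The share of cortical excitatory neuron markers was 0.112% in Sham 4 against 0.000799% to 0.00298% in the other sham libraries.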

How the results depend on the processing

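No member and no gene of the further lists was called under any of the 23 alternatives, while the number of called genes over the whole table, 26 with the settings used, was 181 with the DESeq2 Wald test, 207 with limma-voom with sample quality weights, 55 at an adjusted p threshold of 0.10, 12 without Sham 1 and Sham 5, 1 without Sham 1, Sham 4 and Sham 5, and 9 to 51 without any 1 library (51 without Sham 2, 9 without DHCA 2). With the number in the titles as a replicate block it was 8. The labels do not say that these numbers pair samples, and same-numbered libraries correlated at -0.39 to 0.34 in their deviations from the group means, with 0 of 6 correlating best with its own number. Of 667 member values under the alternatives, 578 kept their direction and 89 turned, in 19 of the 29 members. The 578 include the 29 values at the threshold of 0.10, which come from the main fit and could not turn. All of these estimates are log2 fold changes, and the cause of the turns was not tested. The estimates that turned were EBP (-0.0057) and CYP46A1 (-0.014) with DESeq2 size factors; EBP (-0.047), SOAT1 (-0.024) and CYP46A1 (-0.051) with upper-quartile factors; and SOAT1 (-0.0023) with the DESeq2 Wald test. With limma-voom weights they were MVD (0.35), FDPS (0.28), GGPS1 (-0.046), SREBF2 (0.055), SCAP (0.019), SOAT1 (-0.31), APOE (0.22) and INSIG2 (-0.071). Without a filter they were MVD (0.022), FDPS (0.013) and ABCA1 (0.0078), and with 1 CPM in 6 libraries CYP46A1 (-0.0032). With the replicate block they were ACAT2 (-0.032), MVD (0.013), FDPS (0.035), EBP (-0.012) and NPC1 (-0.11), and without mitochondrial and red cell genes EBP (-0.011) and CYP46A1 (-0.021). Without Sham 1 and Sham 5 they were HMGCS1 (-0.022), MVD (0.48), GGPS1 (-0.13), SREBF2 (0.20), SCAP (0.12), SOAT1 (-0.17), ABCA1 (0.0073), APOE (0.30) and INSIG2 (-0.15). Without Sham 1, Sham 4 and Sham 5 they were HMGCS1 (-0.031), MVD (0.60), FDPS (0.15), GGPS1 (-0.10), SREBF2 (0.19), SCAP (0.061), SOAT1 (-0.34), NPC2 (-0.023), APOE (0.35) and INSIG2 (-0.13). Ranges without any 1 library that cross 0 were ABCA1 -0.11 to 0.086, ACAT2 -0.21 to 0.23, APOE -0.47 to 0.018, CYP46A1 -0.17 to 0.21, CYP51A1 -0.11 to 0.58, DHCR7 -0.12 to 0.27, EBP -0.14 to 0.075, FDPS -0.15 to 0.16, GGPS1 -0.011 to 0.25, HMGCS1 -0.18 to 0.61, IDI1 -0.16 to 0.47, INSIG2 -0.045 to 0.17, MSMO1 -0.011 to 0.92, MVD -0.19 to 0.18, NPC1 -0.40 to 0.29, NSDHL -0.092 to 0.70, SCAP -0.21 to 0.016, SOAT1 -0.086 to 0.12, SREBF1 -0.038 to 0.36 and SREBF2 -0.28 to 0.030. Those that did not cross 0 were MVK 0.017 to 0.43, PMVK -0.49 to -0.15, FDFT1 0.074 to 0.44, SQLE 0.16 to 0.54, TM7SF2 0.19 to 0.48, HSD17B7 0.26 to 0.73, SC5D 0.21 to 0.79, INSIG1 0.16 to 0.52, STARD4 0.54 to 1.46, NPC2 0.082 to 0.39 and ABCG1 0.28 to 0.42. The smallest library limits precision: FDPS rests on 6 counts in Sham 5.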
